A study of Mus musculus with 3 samples.

Results

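The genes described here are Notch effectors of the Hes and Hey families, Hes1, Hes3, Hes5, Hes6, Hey1, Hey2 and Heyl, together with the receptor gene Notch1. They are 8 of the 35019 gene names given to the probes after symbols were updated, and all 8 had a probe, with 9 probes in all. These genes were chosen on their signals in the same arrays, so their levels and differences are given as a description with standard errors and with no test of their own. The signals came from male mouse embryonic stem (ES) cells in which Nr0b1 (also named Dax1), a nuclear receptor family member without a DNA binding domain, was removed. Nr0b1 KO/Y cells (KO cells), labelled Dax1 KO, were established clones with exon 2 deleted. Nr0b1 fl-/Y+Tx cells (+Tx cells), labelled as an induced Dax1 KO at 4 days, carried the floxed exon 2 and were cultured with 4-hydroxy tamoxifen (Tx) for 4 days. The untreated Nr0b1 fl-/Y-Tx cells (-Tx cells) carried the same floxed allele and received no Tx. All 3 groups descended from EB5 cells, a line derived from E14tg2a, and all carried piggyBac transgenes for MerCreMer, a Cre recombinase switched on by Tx, and for Egfp. The cells were grown in serum and LIF, with or without mouse embryonic fibroblast feeders, and neither the feeder condition nor the clone behind the arrays is stated. Each group was measured on 3 arrays, described as biological triplicates. Because no source ties an array to a replicate, the arrays are numbered here by their position on the slides.

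Notch receptors are activated by Delta or Jagged ligands on a neighbouring cell. Adam proteases and the gamma-secretase complex then release the intracellular domain, which enters the nucleus, joins the DNA binding protein Rbpj and a Mastermind-like protein, and turns on target genes. The best known targets encode the Hes and Hey proteins, basic helix-loop-helix repressors that bind DNA and recruit Groucho (Tle) corepressors. Hes1 and Hes5 are the classical effectors that keep neural progenitors undifferentiated, Hes3 is expressed in neural progenitors, and Hes6 is a relative that antagonises Hes1. In ES cells the pathway is known mainly for its part in the choice to differentiate along the neural lineage.

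The promoters are shown because the Rbpj motif in them is the known route by which the pathway reaches its target genes. Promoter sequences from RefSeq (build GRCm38.p6, 250 bases before to 50 bases after each start) were matched by symbol for 4 of the 8 genes, Hes5, Hes6, Hey2 and Notch1, with 5 promoters in all. They were searched on both strands for the core motif TGGGAA and for a longer form that contains it, GTGGGAA. The core was found in 2 of these 5 promoters, those of Hes5 and Hey2, each with 2 matches, and every match was part of the longer motif. Among all 32851 promoters of the same length, 25.6% held at least 1 core, 3.79% held 2 or more, 6.38% held the longer motif, and 0.256% held it 2 or more times. The stretches below run 260 bases, from the first base of the window to just past the start, with the core motif in capitals. The Hes5 stretch is chr4:154960673-154960932 on the plus strand, with cores beginning at positions -226 and -82 from the start. The Hey2 stretch is chr10:30842774-30843033 on the minus strand, with cores beginning at -207 and -3.
Hes5: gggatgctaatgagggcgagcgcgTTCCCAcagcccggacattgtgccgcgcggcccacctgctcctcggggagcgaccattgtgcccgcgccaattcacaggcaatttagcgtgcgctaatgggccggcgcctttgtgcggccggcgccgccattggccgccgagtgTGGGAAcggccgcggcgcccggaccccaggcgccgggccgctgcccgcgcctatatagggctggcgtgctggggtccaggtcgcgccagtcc
Hey2: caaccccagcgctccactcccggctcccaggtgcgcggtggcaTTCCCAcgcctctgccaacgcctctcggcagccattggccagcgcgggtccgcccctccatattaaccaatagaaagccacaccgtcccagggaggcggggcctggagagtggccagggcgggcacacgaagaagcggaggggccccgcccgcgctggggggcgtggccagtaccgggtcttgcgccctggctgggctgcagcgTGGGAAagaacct
The promoter of Notch1 (chr2:26503773-26504072, minus strand) held no core, nor did the promoters at either of the 2 starts of Hes6 (chr1:91413173-91413472 and chr1:91413989-91414288, minus strand), which says only that these letters are not in these windows. The N-box CACNAG, known as a binding site of Hes proteins and read on both strands, occurred 3 times in the Notch1 promoter and 2 times in 1 of the Hes6 promoters. It was present in 42.5% of all promoters, and 11.3% held 2 or more. The palindromic E-box CACGTG was in none of the 5 promoters and in 7.15% of all.

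Signals are given as a percentage of each array's 75th percentile of signal, so that 100% is the brightness below which 75 of every 100 probes lie, and a difference is a difference of log2 signals between group means. A spot counted as detected where the scanner software marked it well above background, and the lowest such signal on an array lay between 4.53% and 7.90%. On the 9 arrays, 28820 to 32516 of 55681 probes were detected, and arrays of a group correlated at 0.994 to 0.997 over the genes tested. The Nr0b1 probe checked the labels. It gave 1.21%, 1.36% and 1.34% in KO cells, never above background, 16.7%, 15.8% and 18.7% in +Tx cells, and 1618%, 1817% and 1719% in -Tx cells. The summed signal of 10 pluripotency markers, all detected, was 55680% to 67510% in KO, 66470% to 71390% in +Tx and 72590% to 75840% in -Tx cells. The arrays lay on 2 slides. The first slide carried the 3 -Tx arrays plus array 1 of +Tx cells, and the second carried arrays 2 and 3 of +Tx cells plus the 3 KO arrays.

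Hes3, Hes5, Hes6 and Hey1 were lower in KO than in -Tx cells, whereas Hes1 overlapped between these groups. The difference was 2.03-fold for Hes6, 2.22-fold for Hes5, 2.84-fold for Hey1 and at least 3.49-fold for Hes3. The genes were chosen on these same signals. Of all genes tested, 2.85% were called lower in this comparison (limma, over 2-fold and adjusted p under 0.05). The genes lower in KO cells followed different courses. At 4 days of Tx, Hey1 and Hes6 were already nearer to the established knockout than to untreated cells, Hes3 was between the 2 other groups, and Hes5 was at the level of untreated cells. Hey2 and Heyl were not detected on any array.

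**Figure D1:**
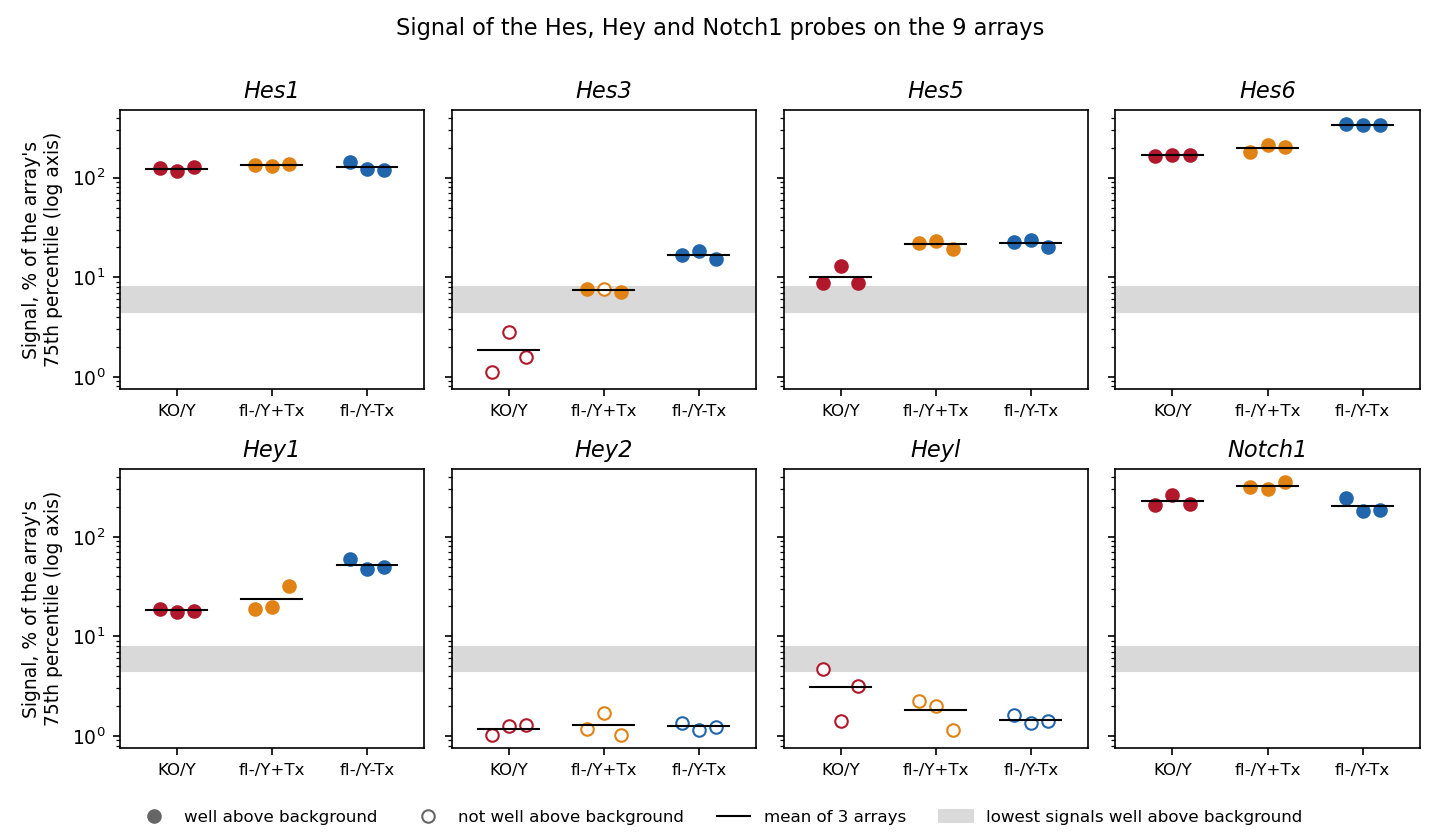
Signal of each gene's probe (log axis, percent of the array's 75th percentile) on the 3 arrays of KO, +Tx and -Tx cells, with open points where the spot was not well above background, lines at the group means and a grey band from 4.53% to 7.90% for the lowest detected signals. For Notch1 the brighter of 2 probes is drawn; Hes3, Hes5, Hes6 and Hey1 lie lower in KO than in -Tx cells, and Hey2 and Heyl lie below the band or at its lower edge.

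Hes1, the effector that oscillates in many progenitor cells, gave 125.5%, 116% and 128% in KO cells. In +Tx cells it gave 133%, 132% and 136.5%, and in -Tx cells 144%, 123% and 120.4%. Array 1 of the -Tx group was the highest of all 9, and the other 2 of that group lay among the KO values. The log2 difference was -0.06 (SE 0.081, 95% interval -0.25 to 0.12) for KO over -Tx and 0.05 (-0.13 to 0.24) for +Tx over -Tx. For KO over +Tx it was -0.12 (-0.30 to 0.07), with the 3 KO arrays all below the 3 others. The Hes1 intervals thus reached no further than 0.30 on the log2 scale in either direction.

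Hes3, a repressor expressed in neural progenitors, was detected on none of the KO arrays, where its signal was 1.11%, 2.84% and 1.58%. In +Tx cells it was 7.54%, 7.64% and 7.15%, of which array 2 did not pass as above background, and in -Tx cells 16.6%, 18.5% and 15.3%, all detected. The 3 groups did not overlap. Since Hes3 had no measured level in KO cells, the fold is a lower bound, set against the lowest detected signal of each array where the probe itself was below it. It was at least 3.49-fold lower in KO than in -Tx cells and at least 1.55-fold lower in KO than in +Tx cells. The log2 difference between +Tx and -Tx cells was -1.17 (SE 0.284), or 2.25-fold lower with Tx.

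Hes5, the Notch target with 2 Rbpj motifs printed above, had signals of 8.75%, 13.02% and 8.76% in KO cells. Its signals were 22.1%, 23.4% and 19.1% in +Tx cells and 22.5%, 23.9% and 20.3% in -Tx cells. The cells with and without Tx overlapped, and every KO array lay below both. Hes5 was 2.22-fold lower in KO than in -Tx cells (log2 difference -1.15, SE 0.159) and 2.15-fold lower than in +Tx cells (-1.10), with a difference of -0.05 (95% interval -0.41 to 0.31) between +Tx and -Tx cells. All 9 Hes5 spots were detected, and the lower KO signals were less than 2 times the lowest detected signals of their arrays.

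Hes6, which opposes Hes1 and promotes neuronal differentiation, had the smallest standard error of the 6 fitted genes. It gave 165%, 169.5% and 169% in KO cells, 180.0%, 213% and 202% in +Tx cells, and 343%, 341% and 338% in -Tx cells. No group overlapped another. The log2 difference was -1.02 (SE 0.071) for KO over -Tx, a 2.03-fold lower signal, and -0.78 for +Tx over -Tx, a 1.72-fold lower signal. Between KO and +Tx cells it was -0.24 (95% interval -0.40 to -0.08).

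Hey1, a Hey family repressor best known from heart and vessel development, gave 19.0%, 17.5% and 18.1% in KO cells. It gave 18.9%, 19.9% and 31.99% in +Tx cells, and 59.2%, 47.0% and 49.7% in -Tx cells. Array 3 of the +Tx group stood above its group, and the other 2 lay near or within the KO range, so these groups overlapped while both stayed below -Tx cells. Hey1 was 2.84-fold lower in KO than in -Tx cells (log2 difference -1.51, SE 0.188) and 2.26-fold lower in +Tx than in -Tx cells (-1.17). The difference between KO and +Tx cells was -0.33 (95% interval -0.76 to 0.10). Leaving out array 1, 2 or 3 of the +Tx group gave -0.47, -0.43 and -0.09.

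Hey2, which acts beside Hey1 in the heart and in arteries, gave no spot well above background, with signals of 1.02% to 1.27% in KO, 1.01% to 1.71% in +Tx and 1.15% to 1.36% in -Tx cells. Heyl, the remaining Hey relative, gave 4.74%, 1.42% and 3.16% in KO cells, 2.26%, 2.0% and 1.15% in +Tx cells, and 1.64%, 1.33% and 1.41% in -Tx cells. None of these spots was detected, and the Heyl groups overlapped. No fold is given for either gene. Hey2, whose promoter held as many Rbpj motifs as that of Hes5, thus gave no detected signal in these cells.

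Notch1, the receptor, had 2 probes that differed in detection. The measured probe, shown because the Notch1 result turns on it, is chr2:26319440-26319499 on the minus strand (build mm9, as the array files give it) and begins at base 5898 of the transcript.
Notch1 probe: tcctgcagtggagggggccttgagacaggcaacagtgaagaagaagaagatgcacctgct
It gave 210.4%, 264% and 214% in KO cells, 318%, 303% and 355% in +Tx cells, and 245%, 183% and 186% in -Tx cells. All 3 +Tx arrays were above the other 6, and the KO and -Tx arrays overlapped. The log2 difference was 0.17 (SE 0.137, 95% interval -0.14 to 0.49) for KO over -Tx, 0.68 (0.37 to 0.99) for +Tx over -Tx, and -0.51 (-0.82 to -0.20) for KO over +Tx. The other probe, beginning at base 8221, was not detected on any array, at 1.14% to 5.04%.

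**Figure D2:**
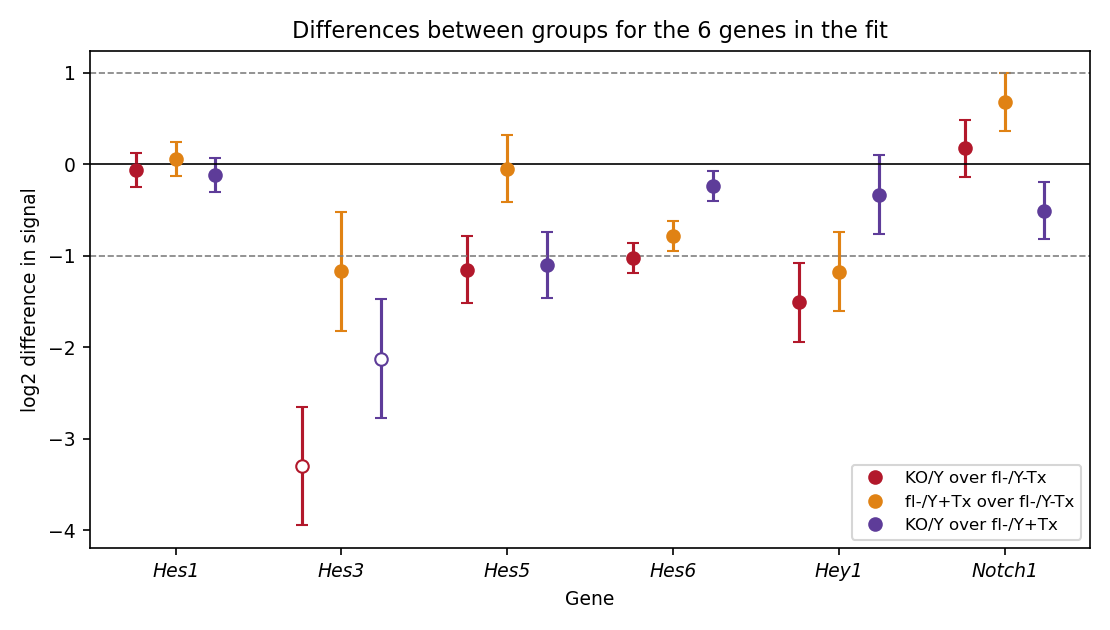
Log2 difference in signal (vertical axis) for the 6 genes measured well enough to be fitted, in the 3 comparisons, with 95% intervals as bars (3 arrays a group), dashed lines at a 2-fold difference and open points where KO cells gave no detected Hes3 signal. Hes3, Hes5, Hes6 and Hey1 lie below -1 for KO over -Tx, at -1.02 for Hes6, -1.15 for Hes5 and -1.51 for Hey1, while the open Hes3 points rest on undetected KO signals and are no measured size.

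A gene was called in a comparison at more than 2-fold and an adjusted p under 0.05 (limma, Benjamini-Hochberg over 22434 genes). Of the 8 genes, 6 passed the filter, being detected on all 3 arrays of some group, and entered the fit, and Hey2 and Heyl did not. For KO over -Tx, 4 were called lower (Hes3, Hes5, Hes6, Hey1) and 0 higher, where 2.85% of all genes tested were called lower and 4.72% higher. For +Tx over -Tx, 2 were called lower (Hes3, Hey1) and 0 higher, where 0.762% of all genes were called lower and 1.75% higher. For KO over +Tx, 2 were called lower (Hes3, Hes5) and 0 higher, where 1.05% were called lower and 2.37% higher. Nothing is read from these counts, because the genes were chosen on the same contrasts. The median log2 difference of the 6 was -1.09, -0.42 and -0.42 in the 3 comparisons, beside -0.06, -0.06 and 0.01 over all genes. The first and second comparisons share their -Tx arrays, and the first and last their KO arrays.

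The 4 calls for KO over -Tx were all lost under 1 alternative, normexp, which starts from the unprocessed signals, models the local background and adds an offset of 50; these steps were changed together and not tested apart. With it all 4 stayed lower but under 2-fold, at -0.95 for Hes3, -0.62 for Hes5, -0.93 for Hes6 and -0.94 for Hey1, and the calls of the other comparisons were lost as well. Hes6 also fell short of 2-fold after quantile normalization, at -0.98. With the slide as a block Hey1 was at -1.92 and Hes6 at -1.23. No slide held both KO and -Tx arrays, so that block rests on the +Tx arrays, which lay on both. On the first slide alone, +Tx over -Tx (1 array against 3) was -1.15 for Hes3, -0.01 for Hes5, -0.92 for Hes6, -1.45 for Hey1 and 0.65 for Notch1. On the second slide alone, KO over +Tx (3 arrays against 2) was -1.08 for Hes5, -0.31 for Hes6, -0.47 for Hey1 and -0.52 for Notch1. The call of Hes3 for +Tx over -Tx was lost without array 2 of the -Tx group, at -1.10.

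**Figure D3:**
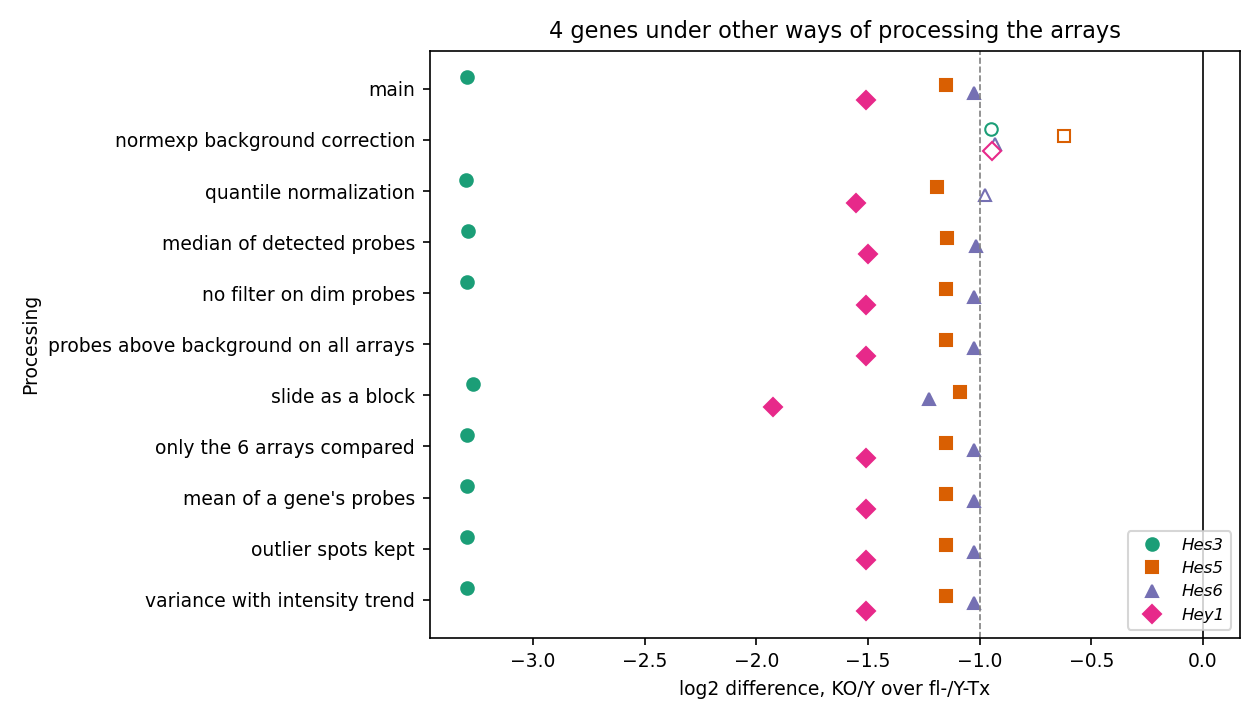
Log2 difference of Hes3, Hes5, Hes6 and Hey1 for KO over -Tx (horizontal axis) under the main processing and its alternatives (rows), filled where the gene was called and open where it was not, with a dashed line at a 2-fold lower signal. All points lie below 0, with the Hes3 points resting on undetected KO signals; the 4 open points of the normexp row run from -0.62 to -0.95.

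Markers of other cells that such a culture can hold moved between the groups as well. The summed signal of 10 markers of feeder fibroblasts, all detected, was 38800% to 44080% in KO, 32530% to 34870% in +Tx and 26620% to 28140% in -Tx cells. That of 10 primitive endoderm markers, all detected, was 3936% to 5957% in KO, 1242% to 1490% in +Tx and 917% to 936% in -Tx cells, and 9 of the 10 were called higher in KO than in -Tx cells. Of 10 neuroectoderm markers 8 were detected, Neurog2 and Dcx were not on any array, and the sum was 2684% to 2804% in KO, 2830% to 2994% in +Tx and 1833% to 1933% in -Tx cells. The 9 vascular markers were Pecam1, Cdh5, Tek, Kdr, Acta2, Tagln, Myh11, Cnn1 and Des. All were detected on at least 1 array, 6 were tested and none was called. Their sums were 20200% to 22280% in KO, 20670% to 21360% in +Tx and 18240% to 19170% in -Tx cells. Such a sum does not show which of these genes it came from. Of 8 mesoderm markers, Mesp1 and Mixl1 were never detected, and the sum was 3089% to 4600% in KO, 2879% to 3989% in +Tx and 3960% to 4100% in -Tx cells. Trophectoderm markers (8 of 9 detected, without Elf5) summed to 2062% to 2198% in KO, 654% to 695.5% in +Tx and 1248% to 1279% in -Tx cells, and 8 markers of the 2-cell-like state to 17750% to 20450% in KO, 11330% to 12790% in +Tx and 2145% to 2221% in -Tx cells. The part of these cells in the Hes and Hey differences was not tested, and in bulk RNA fewer cells expressing a gene and less RNA per cell cannot be told apart.

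The rest of the pathway was read from 9 lists of 81 genes, of which 80 had a probe of their own and 68 were tested (Aph1b and Aph1c, near copies, shared 1 probe). For KO over -Tx, 4 were called higher and 2 lower, with a median of -0.04. For +Tx over -Tx, 1 was called higher and 1 lower, with a median of 0.00. For KO over +Tx, 0 were called higher and 2 lower, with a median of -0.01. These shares can be set beside the percentages called among all genes, given above.

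**Figure D4:**
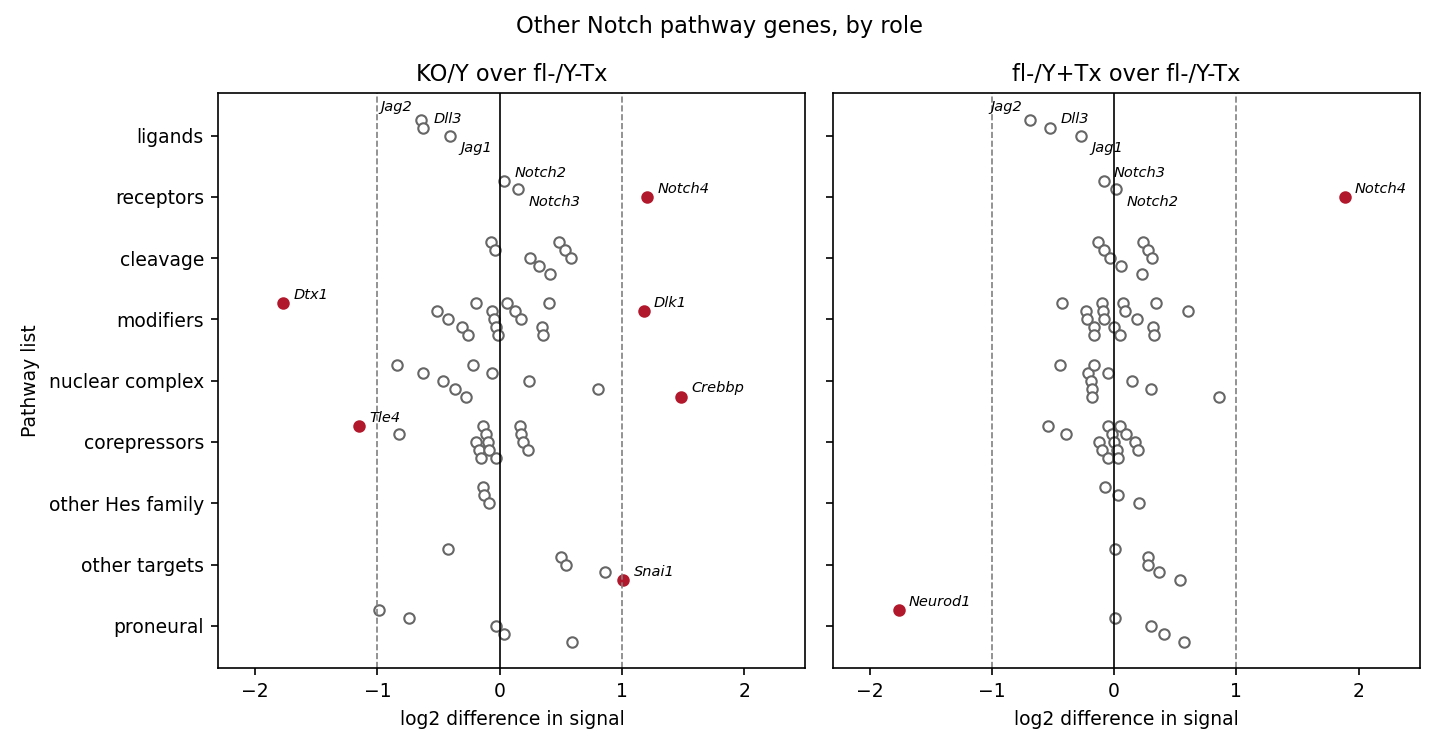
Log2 difference in signal (horizontal axis) of the tested genes in the 9 pathway lists (rows), for KO over -Tx on the left and +Tx over -Tx on the right, filled where called and with dashed lines at a 2-fold difference. Notch4 is the only receptor called, at 1.20 on the left and 1.89 on the right, and none of the 3 ligands drawn is called.

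Among the ligands, Dll1 and Dll4 were not detected on any array. Dll3, a Delta-like protein that acts on Notch within the same cell, averaged 62.5% ± 4.2 in KO, 67.1% ± 3.31 in +Tx and 96.7% ± 5.59 in -Tx cells (SD, n = 3 each). Its log2 difference for KO over -Tx was -0.63 (limma, adjusted p = 0.000229), whereas its other probe gave -0.21. The Jagged ligand Jag2 averaged 37.1% ± 4.15 in KO, 36.1% ± 2.69 in +Tx and 58.1% ± 4.96 in -Tx cells, with a difference of -0.65 (limma, adjusted p = 0.000991) in the first comparison and -0.69 (adjusted p = 0.00218) in the second. Jag1, the other Jagged ligand, differed by -0.41 (limma, adjusted p = 0.00549) between KO and -Tx cells. All 3 detected ligands were under the 2-fold limit.

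Among the receptors, Notch4, known chiefly from endothelial cells, rose in both kinds of Nr0b1-depleted cells. It gave 324%, 343% and 336.5% in KO cells, 532%, 543% and 536% in +Tx cells, and 143.5%, 133% and 161% in -Tx cells, with no overlap between groups. The log2 difference was 1.20 (limma, SE 0.076, adjusted p = 6.58e-06) for KO over -Tx and 1.89 (adjusted p = 9.94e-07) for +Tx over -Tx. For KO over +Tx it was -0.68 (adjusted p = 0.000393), under the 2-fold limit. Notch4 and the detected probe of Notch1 thus both had their highest signals in +Tx cells. Notch2 and Notch3 did not pass in any comparison, with differences of 0.04 and 0.15 for KO over -Tx (limma, adjusted p = 0.823 and 0.171).

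None of the 8 tested genes for receptor cleavage, which include the Adam proteases and the gamma-secretase subunits, was called in any comparison. Without the fold limit, 5 of the 8 were higher in KO than in -Tx cells and 0 lower. The median log2 difference of the 8 was 0.36. For Aph1a, among these 5, the other probe went the opposite way (-0.465 against 0.41). Over all 68 tested pathway genes, 18 were higher and 18 lower without the fold limit. Of all 22434 genes tested, 4612 were higher and 5921 lower in the same way. In the list of ligand and receptor modifiers, with 17 tested, Dtx1, a ubiquitin ligase known both as a Notch regulator and as a Notch target, gave 128%, 128% and 137% in KO cells, 316%, 358% and 326% in +Tx cells, and 462%, 432% and 446% in -Tx cells. The groups did not overlap, and Dtx1 was 3.41-fold lower in KO than in -Tx cells (limma, log2 difference -1.77, SE 0.069, adjusted p = 3.33e-07). Like Hes5, it was called lower for KO over +Tx (limma, -1.35, adjusted p = 8.01e-06). For +Tx over -Tx Dtx1 was lower but under the 2-fold limit (limma, -0.42, adjusted p = 0.00323), whereas Hes5 was at -0.05 with overlapping arrays. Dlk1, a Delta-like protein that lacks the receptor-activating domain, rose by 1.18 on the log2 scale (limma, adjusted p = 1.86e-06) to 2094% ± 62.3 in KO, against 926% ± 32.6 in -Tx cells (SD, n = 3 each). Lfng, the untested gene of this list, was detected on 2 -Tx arrays and on no +Tx or KO array.

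In the nuclear list, Rbpj itself averaged 623% in KO, 651.5% in +Tx and 526% in -Tx cells, and was not called (limma, 0.24, adjusted p = 0.0544, for KO over -Tx). Crebbp, an acetyltransferase coactivator used by many transcription factors, was the 1 of 10 tested that was called, higher by 1.48 on the log2 scale in KO than in -Tx cells (limma, adjusted p = 4.43e-06), and a further probe of it gave 1.41. Of 14 corepressor genes, Tle4, a Groucho protein, was called lower at a log2 difference of -1.15 (limma, adjusted p = 3.56e-05), whereas its other probe gave -0.66, and the call was lost with the mean of the probes (-0.90) and with normexp (-0.90). The remaining 13, with Tle1, Tle2 and Tle3 among them, were not called.

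Of the other Hes relatives, Hes2, Hes7 and Bhlhe40 were tested. None was called in any comparison, and their differences for KO over -Tx were -0.13, -0.13 and -0.09. Helt was not detected. Bhlhe41 was detected on 2 -Tx arrays, 1 +Tx array and no KO array, and was not tested. Of other genes known as Notch targets in some tissues, Snai1 was called higher in KO than in -Tx cells (limma, 1.01, adjusted p = 3.09e-06), a call lost with the slide as a block (0.94), with normexp (0.93) and without array 1 of the -Tx group (0.98). Nrarp, a feedback inhibitor that Notch induces in many tissues, was not detected. Myc was lower in KO than in -Tx cells (limma, -0.43, adjusted p = 0.00733), under the 2-fold limit. Also under that limit, Sox9 (0.86), Ccnd1 (0.54) and Cdkn1a (0.50) were higher (limma, adjusted p = 0.000128, 0.000117 and 0.000297). Of the 5 tested in this list, 4 were higher and 1 lower at an adjusted p under 0.05, with a median of 0.54. At the same limit 4612 of all 22434 genes were higher and 5921 lower.

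The proneural genes, which Hes proteins repress in neural tissue, were mostly dim. Atoh1, Neurog2 and Neurod4 were not detected. Neurog3, the endocrine proneural factor, averaged 30.2% ± 4.93 in KO, 74.3% ± 3.1 in +Tx and 50.1% ± 1.69 in -Tx cells, and was called lower for KO over +Tx (-1.31, adjusted p = 0.000109). Neurod1 was not detected in +Tx cells and was at least 2.31-fold lower there than in -Tx cells, where it averaged 13.4% ± 1.78 (limma, adjusted p = 0.00125). Both calls were lost with normexp, at -0.94 and -0.44.

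For each of the 4 genes with over 2-fold between any 2 groups, the 3 genes of most similar pattern were found by the root mean square difference of log2 signals, each gene centred on its mean over the 9 arrays. For Hes6 these were Tspan14, a tetraspanin, at 0.063, Clstn3 at 0.064 and Adat2 at 0.074. Tspan14 averaged 217% in KO, 246% in +Tx and 411% in -Tx cells. For Hes5 they were Adad2 (0.120), Prr19 (0.123) and 9830107B12Rik (0.126), of which Prr19 averaged 12.2% in KO, 26.4% in +Tx and 25.2% in -Tx cells. For Hey1 they were Flicr (0.166), Spsb4 (0.172) and Mup6 (0.180), but Flicr averaged only 2.6% in KO and 3.12% in +Tx cells, below the lowest detected signals, against 7.43% in -Tx cells, so its rank is uncertain. The distances for Hes3 were larger, at 0.378 for Gli1, 0.394 for Rhox5 and 0.395 for Accsl, and included Hes3 signals below detection. Gli1, a transcription factor of the Hedgehog pathway, averaged 130% in KO, 437% in +Tx and 1244% in -Tx cells.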

How the data were processed

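RNA of 3 groups of mouse ES cells was hybridised to 1-colour Agilent SurePrint G3 arrays, 3 arrays a group, and the authors deposited the scanner text files made with Agilent Feature Extraction 10.7.3.1. The deposited intensity columns are the processed signal, the mean signal and the local background of each spot, and the deposited flag columns mark spots well above background or outlying. A deposited table of the whole series holds 1 signal column a group, which equalled the geometric mean of that group's arrays up to a constant and gave the same differences. The authors used NIA Array Analysis Software, with settings not given in the sources used here.

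After control spots were left out, processed signals were put on the log2 scale minus each array's 75th percentile. Outlier spots were left out after that step, and replicate spots were averaged. A probe entered only if flagged well above background on all 3 arrays of some group and left with a value on every array. Genes with several probes were read from the brightest. All 9 arrays entered 1 limma fit (R 4.3.3, limma 3.58.1) of 22434 genes with 3 contrasts, tested on simulated data first, and a call needed both an adjusted p under 0.05 and more than 2-fold, as in the study. Symbols were updated through RefSeq accessions for 27235 of 55681 probes. The number of arrays limits the precision, and p-values measure the spread between these arrays. The 8 genes and the pathway and marker lists were chosen with earlier results of these data known. The genes named were the 8 with all their probes, pathway genes called in any comparison, ligands and receptors, and for each of the 8 that differed over 2-fold the 3 genes of nearest pattern; others named for context were chosen after their values were seen. Alternatives changed the background correction, scaling, probe filter, slide block, arrays in the fit, fold limit, probe choice and outlier handling.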

Additional observations from a re-analysis of the deposited data

How the results depend on the processing

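No paired analysis was possible because the arrays carry no replicate number that links the groups. Counts are given for KO over -Tx first, then for +Tx over -Tx, and last for KO over +Tx. With normexp background correction, 682, 206 and 256 of all genes were called, 0 of the 8 in each comparison (0, 0 and 0), and 1 and 1 pathway genes in the second and last. Restricted to probes above background on all arrays (20167 genes), 1038, 302 and 378 genes were called, with Hes3 left out by that filter, so that 1 and 1 of the 8 were called in the second and last comparisons, and 1 pathway gene in the second. With no fold limit, 10533, 5977 and 5883 genes were called, 4 and 4 of the 8 in the second and last comparisons, and 36, 23 and 23 pathway genes. With the slide as a block, 1 of the 8 was called in the second comparison, since Hes3 at -1.15 was not. Leaving out 1 array at a time gave 1671 to 1706, 547 to 600 and 730 to 797 genes, 4 to 4, 1 to 2 and 2 to 2 of the 8, and 5 to 7, 2 to 2 and 2 to 2 pathway genes. The cause of these shifts was not tested beyond the filters themselves. Among the 8 genes and the called pathway genes, no called difference changed sign under the alternatives run; signs were not followed for other genes. Dim signal limits 3 of the 8, with Hes3, Hey2 and Heyl at or below the lowest detected signals in at least 1 group.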
